A study of Mus musculus with 3 samples.

Results

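Oxidative phosphorylation genes were followed through naive, central memory and effector memory CD8+ T cells, the cytotoxic T cells, of mouse spleen. Members were chosen by gene symbol (mt-, Nduf, Sdha to Sdhd, Uqcr, Atp5, and Cox followed by a digit) and by a sum of at least 30 counts over the libraries. The symbols took 118 rows of a table of 25638 genes, of which 16331 had a count, and 112 passed the limit: 99 nuclear genes and the 13 protein-coding genes of the mitochondrial genome. mt-Atp8 was just inside the limit with 31 counts (12, 4 and 15 in naive, central memory and effector memory) and Cox6a2 just outside it with 27 (7, 8 and 12). The other 5 rows outside it were Cox4i2, Cox8b, Cox7b2, Cox8c and Ndufa4l2, subunit forms that mainly belong to other tissues or states, with 0 to 4 counts each. Among the nuclear members, 36 belong to complex I, 4 to complex II, 8 to complex III, 13 to complex IV and 15 to complex V, and 23 are assembly factors. None of the 118 rows was a mitochondrial rRNA or tRNA gene, so these were not analysed here and are not part of the mitochondrial shares below.

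Oxidative phosphorylation makes ATP at the inner mitochondrial membrane. Complexes I and II take electrons from NADH and succinate, complex III passes them to cytochrome c, complex IV gives them to oxygen, and complex V (ATP synthase) uses the proton gradient that I, III and IV build. Complexes I, III, IV and V mix subunits from the nuclear and the mitochondrial genome, while complex II is nuclear throughout, and assembly factors build the complexes without staying in them. Naive T cells are resting cells, and the mitochondria of T cells grow and change in make-up when the cells are activated and form memory.

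The cells were sorted from spleens of untreated WT mice, and each of the 3 groups has 1 library. The number and age of the animals, their exposure to antigen and the sorting gates were not stated in the sources used here. The libraries held 26876909 (naive), 35846315 (central memory) and 33087462 counts (effector memory). Levels are counts scaled to a common library size (CPM), and 3 values in a row stand for naive, central memory and effector memory in that order. Cd3e, a chain of the T cell receptor complex, stood at 395, 418 and 335 CPM and Cd8a, the CD8 alpha chain, at 1868, 1063 and 408 CPM, so both were present throughout and Cd8a was lowest in effector memory. Cd44, which marks memory cells, stood at 2.95, 45.8 and 113 CPM. The summed level of 8 division genes was 16.5, 730.0 and 4299 CPM and all 8 were higher in each later library, which the labels do not mention. Of markers of other cells, 4 NK cell genes summed to 0.898, 58.1 and 13.1 CPM (Ncr1 at 0, 12.2 and 0). Of these, 3 were at least 2-fold lower in effector memory than in central memory. The remaining NK cell gene was higher there, by less than 2-fold, and was 36.2-fold higher in effector memory than in naive. The 5 B cell genes summed to 32.2, 6.28 and 2.81 (Ms4a1 at 0 in both memory libraries) and 6 myeloid genes to 34.1, 61.6 and 108 (largely Cst3 and Cd68). CD4 T cell genes summed to 6.40, 2.32 and 0.719 CPM, and erythroid and platelet genes to 1.33, 0.530 and 0.375. The part of other cells and of division in the values below was not tested. In bulk samples, fewer cells of a type and less RNA per cell cannot be told apart.

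Nuclear and mitochondrial members did not follow the same order. Nuclear subunit genes were mostly lowest in naive cells, intermediate in central memory cells and highest in effector memory cells, whereas every mitochondrial gene was lowest in central memory cells. Calls of higher or lower required a 2-fold ratio between libraries, an exact 95% Clopper-Pearson interval that left out 1, and 5 CPM in whichever library was higher. With 1 library per group this is a rule of size without a replicate check, the intervals (given in brackets) cover counting error only, and no p-value was computed. The level limit can be met by the higher library alone, so counts over the genes that met it describe these libraries.

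Of the 102 members measured in central memory against naive, 8 (7.84%) were called higher and 4 (3.92%) lower, beside 11.2% and 5.12% of all genes at 5 CPM. The members' shares therefore lay below those of all genes in both directions. The 8 were Ndufa1, Ndufa7, Ndufb8, Ndufb9, Cox5a, Cox8a, Atp5j2 and Cox17, and the 4 were mt-Nd1, mt-Nd2, mt-Nd6 and mt-Atp6. With total counts, DESeq2 or upper quartile scaling the 8 were 4 or 5. In effector memory against naive, 36 of 103 (35.0%) were higher and 2 (1.94%) lower, beside 22.3% and 15.6% of all genes. In effector memory against central memory, 17 of 102 (16.7%) were higher and 2 (1.96%) lower, beside 14.8% and 12.8%, so here the share called higher was near that of all genes. At a ratio of 1.5, 34 of 102 were higher and 10 lower in central memory against naive (22.0% and 10.8% of all genes). The share called higher there was thus above that of all genes. In effector memory against naive 64 of 103 were higher and 4 lower (32.0% and 26.3%). Between the memory libraries 47 of 102 were higher and 5 lower (24.0% and 25.3%). The comparisons share libraries, since naive serves as the reference of both memory groups.

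The counts split by genome. The 36 members called higher in effector memory against naive were all nuclear. Of them, 35 fell among the 73 nuclear subunits at 5 CPM (47.9%), beside 22.3% of all genes. The median log2 ratio of these subunits was 0.48 in central memory and 0.98 in effector memory against naive, where all genes had medians of 0.14 and 0.06. For the 10 mitochondrial genes at 5 CPM the medians were -0.98 and 0.38. Between the memory libraries the subunits had a median of 0.52 and the mitochondrial genes 1.36, beside -0.06 for all genes. Other scalings put the median of all genes between 0.01 and 0.14 in central memory against naive and between -0.05 and 0.06 in effector memory against naive, and between -0.11 and 0.02 between the memory libraries.

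**Figure D1:**
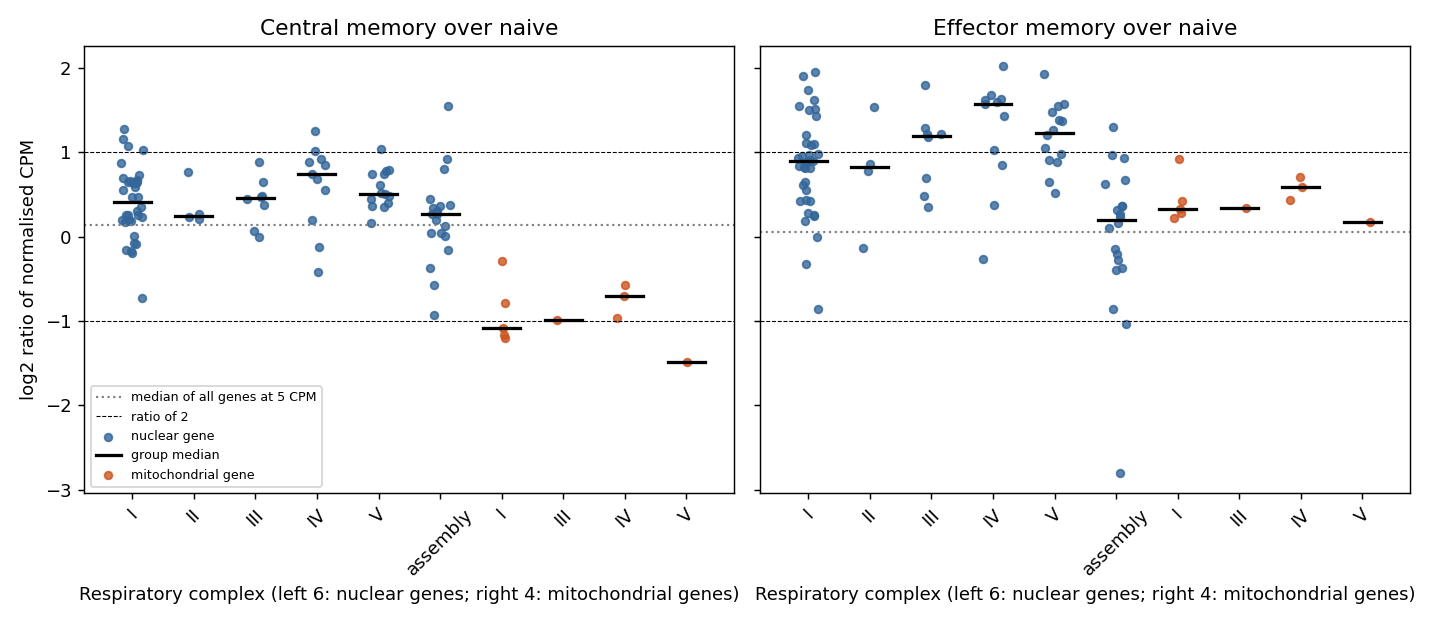
Log2 ratio of normalised CPM against naive (vertical axis) for each member at 5 CPM, by respiratory complex, with blue points for nuclear genes, orange points for mitochondrial genes, black bars for group medians and dotted lines for the median of all genes. In central memory the nuclear medians lie above 0 and all mitochondrial points below 0, whereas in effector memory both genomes have medians above 0 and complex IV has the highest, at 1.57.

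The order of the 3 libraries was counted for each gene. Of the 73 nuclear subunits, 56 (76.7%) had ascending levels from naive through central memory to effector memory, an order that 30.7% of all genes at 5 CPM had. The order held for 13 of 14 complex V subunits, 9 of 11 of complex IV, 6 of 8 of complex III, 3 of 4 of complex II and 25 of 36 of complex I. A further 8 subunits were highest in central memory (Ndufa1, Ndufa6, Ndufa7, Ndufs3, Ndufs7, Sdha, Uqcrh and Atp5e), 6 were lowest there (Ndufab1, Ndufb4, Ndufs1, Ndufv2, Uqcrb and Cox7c), and Ndufa3, Ndufb2 and Ndufa4 had falling levels. Ndufa6, an accessory subunit of complex I, stood at 47.2, 74.1 and 47.2 CPM, with equal levels on either side of central memory. Assembly factors were mixed, with 9 of 20 in the ascending order and 7 highest in central memory. All 10 mitochondrial genes at 5 CPM were lowest in central memory, an order of 15.9% of all genes. The order uses no minimum difference, and many of these steps are smaller than 2-fold.

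Complex I takes electrons from NADH and is the largest of the complexes. Of its 36 nuclear subunits, 12 were called higher and none lower in effector memory against naive (22.3% and 15.6% of all genes). Their median log2 ratio was 0.89. Ndufb9, an accessory subunit, stood at 3.85, 8.12 and 14.9 CPM and was 3.86-fold higher (3.13 to 4.81) in effector memory than in naive cells. Ndufc1 stood at 5.57, 6.67 and 20.9 CPM and Ndufc2, its neighbour in the membrane arm, at 17.6, 22.5 and 58.9 CPM. The central memory level of both was nearer to naive than to effector memory, which was 3.14-fold higher (2.7 to 3.65) and 2.62-fold higher (2.41 to 2.85) than in central memory. Ndufb7 (33.8, 61.7 and 104 CPM) was instead graded, 3.06-fold higher (2.85 to 3.3) in effector memory than in naive. In Ndufa1 and Ndufa7, further accessory subunits, the memory libraries differed by less than counting error. Ndufa7 stood at 22.9, 55.6 and 52.6 CPM, 2.43-fold higher (2.22 to 2.66) in central memory than in naive, and Ndufa1 at 9.16, 20.4 and 19.7 CPM. The remaining calls in effector memory against naive were Ndufa5, Ndufa12, Ndufb6, Ndufb8, Ndufs5 and Ndufv3, of 2.13-fold to 2.93-fold, Ndufs5 not with total counts or upper quartile scaling. At a ratio of 1.5, 25 of the 36 subunits were higher and 1, Ndufb2, lower (32.0% and 26.3% of all genes).

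The complex I genes called in effector memory against naive were all accessory subunits. The 7 nuclear core subunits have counterparts in bacteria, and most of them carry the flavin, iron-sulfur clusters or part of the ubiquinone site. They had 0 calls in effector memory against naive and a median log2 ratio of 0.44, against 12 of 29 and 0.96 for the accessory subunits. Of all genes, 22.3% were called higher in that comparison. In central memory against naive the core and accessory medians were 0.47 and 0.35, with 0 of 7 and 4 of 29 called higher (11.2% of all genes). Between the memory libraries they were 0.20 and 0.47, with 1 of 7 and 3 of 28 called higher (14.8% of all genes). This split was made after the values were seen. The core subunits had ratios of 1.14 for Ndufs1 to 1.87 for Ndufv2, all with intervals above 1. Ndufv2, which holds an iron-sulfur cluster near the flavin, stood at 46.8, 42 and 87.3 CPM and was the core subunit called between the memory libraries, at 2.08-fold higher (1.95 to 2.22) in effector memory. At the other end of complex I, Ndufb2 stood at 6.9, 4.16 and 3.81 CPM, 1.81-fold lower (1.43 to 2.29) in effector memory than in naive and short of the rule. Ndufb11, the nuclear subunit of complex I highest per kilobase in effector memory, stood at 40.9, 49.1 and 79.99 CPM.

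Complex II, succinate dehydrogenase, also belongs to the tricarboxylic acid cycle. Its 4 subunits differed in order. Sdha, the flavoprotein that oxidises succinate, stood at 323, 378 and 294 CPM and was lower in effector memory than in both other libraries, by 1.1-fold (1.07 to 1.13) against naive. Sdhb, the iron-sulfur subunit, stood at 57.5, 66.6 and 105 CPM and Sdhc, a membrane anchor, at 46.8, 56.2 and 80.4 CPM, with ratios to naive of 1.82 and 1.72 in effector memory. Sdhd (ENSMUSG00000000171.5, chromosome 9, 50596357 to 50603812), the other membrane anchor, stood at 47.7, 81.3 and 138 CPM and was the complex II gene called, at 2.9-fold higher (2.72 to 3.08) in effector memory than in naive. Sdha had the highest level per kilobase of complex II in naive and central memory cells (78.2 and 91.7 CPM per kb), and Sdhd in effector memory cells (112 CPM per kb).

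Complex III passes electrons from ubiquinol to cytochrome c. Of its 8 nuclear subunits, 5 were called higher in effector memory against naive (median log2 ratio 1.2), beside 22.3% of all genes. None was called higher in central memory against naive (0.46), beside 11.2% of all genes. Uqcr11, a small accessory subunit, stood at 9.24, 17.1 and 32.2 CPM and was 3.49-fold higher (3.04 to 4.02) in effector memory than in naive. Uqcrfs1, the Rieske iron-sulfur protein, stood at 68, 94 and 158 CPM, and Uqcrb, which lies near the ubiquinone site, at 19.8, 19.7 and 46.2 CPM. Uqcrb thus had one level in naive and central memory cells and was 2.35-fold higher (2.14 to 2.57) in effector memory than in central memory. Uqcr10 and Uqcrq were called as well, at 2.26-fold higher and 2.44-fold higher than naive. The core proteins Uqcrc1 and Uqcrc2 and the hinge protein Uqcrh were not called. Uqcrh, at 84.2, 109 and 107 CPM, was the lowest in ratio at 1.28-fold higher (1.21 to 1.34). Per kilobase it was the highest nuclear subunit of complex III in naive and central memory cells.

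Complex IV, cytochrome c oxidase, had the highest median of the complexes in effector memory against naive, a log2 ratio of 1.57. Of its 11 measured nuclear subunits, 8 were called higher, beside 22.3% of all genes. Cox5a (ENSMUSG00000000088.7, chromosome 9, 57521274 to 57532426), one of the nuclear subunits that surround the catalytic core, stood at 19.3, 38.9 and 78.5 CPM. It was called in all 3 comparisons, at 2.01-fold higher (1.82 to 2.23) in central memory than in naive, 4.06-fold higher (3.7 to 4.46) in effector memory than in naive and 2.02-fold higher (1.89 to 2.15) in effector memory than in central memory. The first and last of these ratios lay at the 2-fold limit, and the call was lost with total counts in both and with DESeq2 and upper quartile factors in the first. Cox8a, the smallest subunit, stood at 59.5, 142 and 185 CPM, so most of its difference was already present in central memory, at 2.38-fold higher (2.25 to 2.52). Cox6a1 stood at 66.3, 123 and 212 CPM, Cox7b at 44.5, 74.2 and 137 CPM and Cox5b, the zinc-binding subunit, at 53.7, 86.4 and 159 CPM. These were between 2.97-fold and 3.19-fold higher in effector memory than in naive, with central memory in between. Cox7a2 and Cox4i1, the regulatory subunit at 114, 206 and 232 CPM, were also called, Cox4i1 at the limit of the rule and not with total counts, DESeq2 or upper quartile scaling. Among nuclear subunits, Cox8a was the highest of complex IV per kilobase in naive and central memory cells (96.1 and 229 CPM per kb) and Cox6a1 in effector memory cells (302 CPM per kb). Cox7c (50.8, 37.9 and 66 CPM) and Cox6c were not called in effector memory against naive. Ndufa4, once assigned to complex I and now placed in complex IV, was not called either and had the lowest ratio, at 62.5, 57.4 and 52.2 CPM.

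Tissue-restricted complex IV isoforms stayed under 5 CPM in each library. Cox6b2, the testis form, had 5, 4 and 76 counts (0.180, 0.112 and 2.38 CPM), 13.2-fold higher (5.43 to 41.9) in effector memory than in naive, but under the level limit of the rule. Its common partner Cox6b1, which docks cytochrome c, stood at 39.5, 75 and 119.8 CPM, so the testis form remained far below it in effector memory. Cox7a1, the heart and muscle form, had 28, 33 and 35 counts and intervals that included 1, beside its partner Cox7a2 at 36.2, 53 and 97.2 CPM.

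Complex V, ATP synthase, held the largest number of counts among nuclear members. Of its 14 measured subunits, 9 were called higher in effector memory against naive, beside 22.3% of all genes. The median log2 ratio was 1.23, and all 14 had intervals above 1. Atp5f1 (ENSMUSG00000000563.17, chromosome 3, 105942698 to 105960099), the b subunit of the peripheral stalk, stood at 125, 165 and 476 CPM, 3.81-fold higher (3.67 to 3.95) in effector memory than in naive but 1.32-fold higher (1.26 to 1.38) in central memory than in naive. Most of its difference therefore separated effector memory from both other libraries. Atp5b, the catalytic beta subunit, stood at 603, 675 and 1389.9 CPM and was also set apart in effector memory, at 2.06-fold higher (2.03 to 2.09) in effector memory than in central memory (not called with total counts). Its partner in the catalytic ring, Atp5a1, stood at 512, 659 and 943 CPM and was not called, at 1.84-fold higher (1.81 to 1.88) than naive. Atp5d, the delta subunit of the central stalk, stood at 78.5, 132 and 234 CPM, and Atp5j, of the peripheral stalk, at 39.6, 56.5 and 116 CPM. The 3 genes for the identical c subunit of the rotor ring, Atp5g1, Atp5g2 and Atp5g3, were all called, at 2.07-fold, 2.4-fold and 2.59-fold, Atp5g1 not with total counts or upper quartile scaling. Atp5j2, a membrane subunit, stood at 55.8, 115 and 156 CPM and was also called in central memory against naive, a call lost with total counts, DESeq2 or upper quartile scaling. Atp5o, of the peripheral stalk, completed the calls, and Atp5e, the epsilon subunit, was lowest in ratio at 40.00, 61.1 and 57.1 CPM. Per kilobase, Atp5a1 was the highest nuclear subunit of complex V in naive and central memory cells (163 and 210.1 CPM per kb). In effector memory cells it was Atp5b (328 CPM per kb). Atp5k stayed under 5 CPM in each library.

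**Figure D2:**
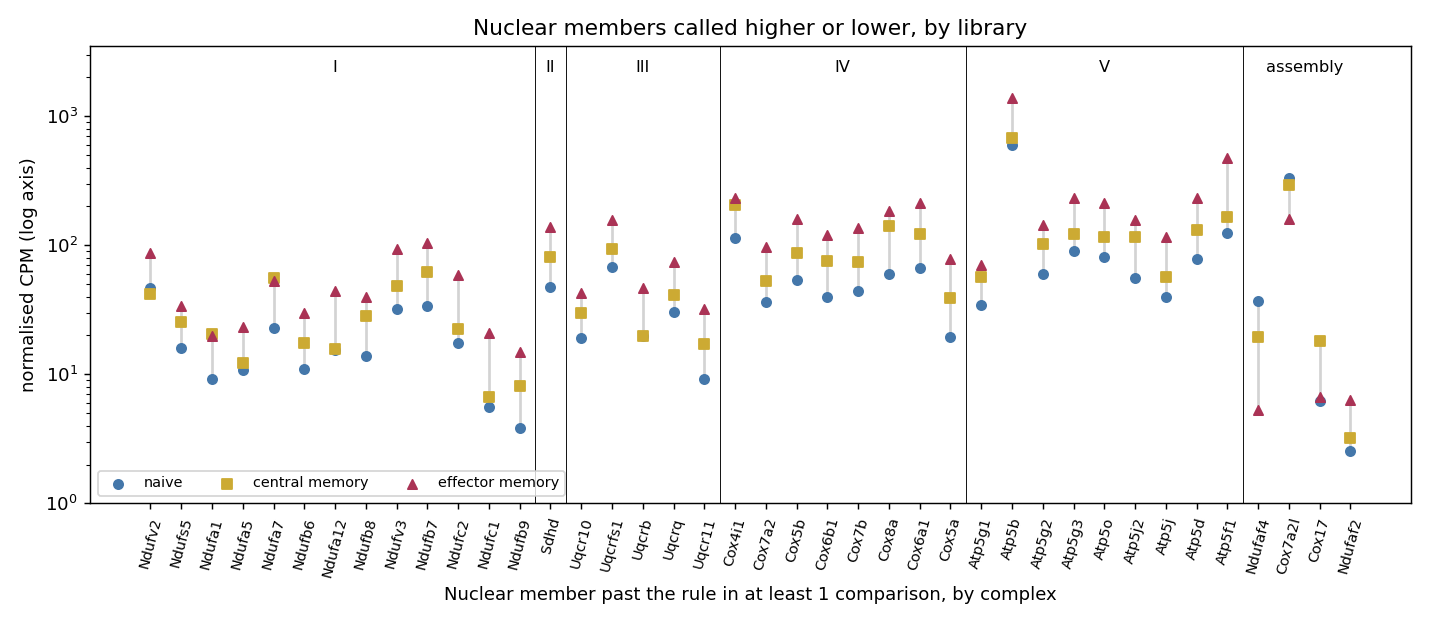
Normalised CPM (log axis) in the 3 libraries for each nuclear member past the rule in at least 1 comparison, by complex, with circles for naive, squares for central memory and triangles for effector memory. Triangles lie above circles for all subunits shown, while Ndufaf4 and Cox7a2l have their triangles lowest and Cox17 is highest in central memory.

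Assembly factors did not share the subunits' pattern. Of 20 measured in effector memory against naive, 1 was called higher (5%) and 2 lower (10%), beside 22.3% and 15.6% of all genes. The median log2 ratio of these factors was 0.20. Ndufaf4 (ENSMUSG00000028261.13, chromosome 4, 24898083 to 24905001), a complex I assembly factor, stood at 36.8, 19.3 and 5.28 CPM. It was 6.96-fold lower (5.91 to 8.24) in effector memory than in naive and 3.66-fold lower (3.09 to 4.36) than in central memory, and most complex I subunits (25 of 36 nuclear ones) had the opposite order of libraries. Ndufaf2, another complex I assembly factor, was the one called higher, at 2.55, 3.21 and 6.29 CPM. Its transcripts share 64.1% of their 50-letter stretches with another annotated gene. Cox7a2l, which helps complexes III and IV join into supercomplexes and was the highest assembly gene per kilobase in all 3 libraries, stood at 329, 295 and 160.5 CPM, 2.05-fold lower (1.98 to 2.12) in effector memory than in naive. Cox17, a copper chaperone for complex IV, stood at 6.18, 18.1 and 6.63 CPM and peaked in central memory, 2.93-fold higher (2.47 to 3.49) than naive and 2.73-fold (2.34 to 3.21) above effector memory. Cox10, which makes a heme precursor for complex IV, stood at 33.9, 26.2 and 18.7 CPM, and Cox19, another protein of the copper pathway, at 10.03, 11.5 and 19.2 CPM, in opposite orders and both short of the rule. The other factors had ratios to naive under 2 in both memory libraries, and Sdhaf1, Sdhaf3 and Sdhaf4, which serve complex II, stayed under 5 CPM.

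Shares of counts do not depend on the scaling factors. Nuclear members took 0.565%, 0.714% and 0.972% of all counts. Within the nuclear members' counts, complex V took 37.1%, 37.6% and 45.5% and complex IV 10.9%, 13.3% and 14.2%, while assembly factors took 12.1%, 9.32% and 4.95% and complex II 8.69%, 8.15% and 6.14%. Single genes weighed heavily in the last 2 of these. Sdha held 8977, 13555 and 9398 of the 13206, 20867 and 19741 complex II counts, whereas Sdhb, Sdhc and Sdhd had ascending levels. Cox7a2l held 9163, 10564 and 5132 of the 18388, 23852 and 15921 assembly counts. Shares without these genes were not computed. Complex I (22.1%, 22.8% and 20.6%) and complex III (9.07%, 8.88% and 8.55%) moved less. Mitochondrial genes took 2.16%, 1.29% and 3.07% of all counts, and without mt-Co1 1.0%, 0.534% and 1.3%.

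**Figure D3:**
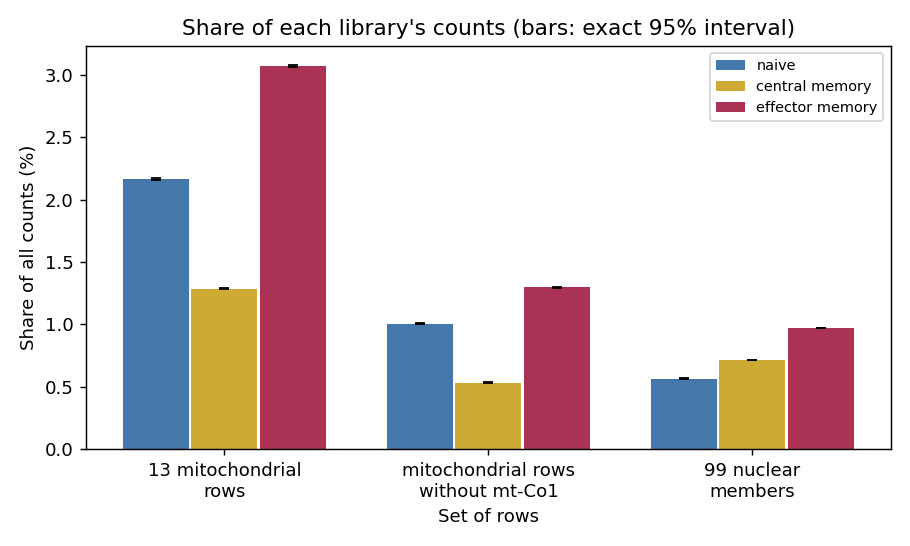
Share of each library's counts (vertical axis, percent) on the 13 mitochondrial genes, on these without mt-Co1 and on the 99 nuclear members, with exact 95% binomial intervals. The mitochondrial share is lowest in central memory (1.29%) with and without mt-Co1, and the nuclear share ascends from 0.565% to 0.972%.

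The balance between the genomes differed accordingly. Mitochondrial counts were 4.36 times the nuclear subunit counts in naive cells (4.33 to 4.38), 1.99 times in central memory cells (1.98 to 2.0) and 3.33 times in effector memory cells (3.31 to 3.34). Within complex I the ratio was 5.49, 2.34 and 4.59, within complex III 6.07, 2.38 and 4.43, and within complex IV 18.9, 7.95 and 12.9. The complex IV ratio rested almost only on mt-Co1, with 311817 of 313141, 269564 of 270504 and 587584 of 589727 mitochondrial counts. In complex I, mt-Nd3 and mt-Nd4l likewise added few counts. In all 3 complexes central memory had the lowest ratio and effector memory lay between it and naive.

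Of the 13 mitochondrial genes, 7 encode subunits of complex I, and mt-Nd1 (chromosome M, 2751 to 3707) had the largest contrast between the memory libraries among those at 5 CPM. It stood at 1834, 820.4 and 3479 CPM, 2.24-fold lower (2.2 to 2.27) in central memory than in naive and 4.24-fold higher (4.19 to 4.3) in effector memory than in central memory. mt-Nd2 stood at 1670.3, 724 and 2032 CPM and mt-Nd6, the gene on the light strand, at 226, 107 and 283 CPM, both called lower in central memory than in naive. mt-Nd4 stood at 982, 570.3 and 1140.3 CPM and mt-Nd5 at 1920.2, 1576 and 2574 CPM, neither of them past the 2-fold rule in any comparison, although mt-Nd4 passed it between the memory libraries under DESeq2, upper quartile and nuclear-only scaling. mt-Nd5 and mt-Nd6 overlap by 14 bases on opposite strands, and the strandedness of the counting was not stated in the sources used here. mt-Nd5 was the flattest of the 7 rows with over 100 CPM, so its share of mitochondrial counts was highest in central memory (9.18%, 12.2% and 8.10%).

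In complex III, mt-Cytb, cytochrome b, stood at 3004, 1513 and 3812 CPM, just short of the rule in central memory at 1.99-fold lower (1.96 to 2.01) than naive. With total counts, DESeq2 or upper quartile scaling, mt-Cytb and mt-Co2 were called lower there. In complex IV, mt-Co1, the catalytic subunit that holds the heme and copper centre, stood at 11206, 7525 and 18373 CPM and alone took 53.6%, 58.5% and 57.8% of mitochondrial counts. It was 1.49-fold lower (1.48 to 1.5) in central memory than in naive and 2.44-fold higher (2.43 to 2.45) in effector memory than in central memory. mt-Co2, the copper subunit that receives electrons, stood at 29.7, 15.2 and 40.1 CPM and mt-Co3 at 17.9, 11 and 26.9 CPM, far below mt-Co1. In complex V, mt-Atp6, which forms part of the proton path, stood at 14.3, 5.11 and 16.2 CPM, 2.81-fold lower (2.35 to 3.36) in central memory than in naive. mt-Nd3 (92, 2 and 27 counts), mt-Nd4l (61, 32 and 74) and mt-Atp8 (12, 4 and 15) were below 5 CPM in each library. In effector memory against naive, none of the 10 measured genes was called, beside 22.3% of all genes higher and 15.6% lower. Of the 10, 9 had intervals above 1. Between the memory libraries all 10 had intervals above 1, and 8 of 10 were called higher in effector memory, beside 14.8% of all genes.

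Of the 6 mitochondrial genes under 100 CPM, 5 have near-identical nuclear copies, so their counts are uncertain. A stretch of chromosome 1 (24611535 to 24616197, mm10) holds unprocessed pseudogenes of mitochondrial origin. mt-Co2, mt-Co3, mt-Atp6, mt-Nd4l and mt-Nd3 share 100%, 99.9%, 99.5%, 98.8% and 98.0% of their 50-letter stretches with other annotated genes, mt-Nd4 62.2% and mt-Co1 51.1%, whereas mt-Nd1, mt-Nd6, mt-Cytb and mt-Atp8 share 0%. mt-Co2, mt-Co3, mt-Atp6 and mt-Nd4l match their copies at every one of 681, 783, 678 and 294 compared bases. mt-Nd3 matches Gm28438 at 344 of 345 bases, with the substitution T3C counted from the 5′ end of the transcript (the base of mt-Nd3 first). The first 33 bases of both are shown, with that position in capitals, because a read that misses it could come from either gene. The treatment of reads with several matches was not stated in the sources used here, its part in the low counts was not tested. Stretches were compared with annotated genes only, so copies outside annotated genes were not counted, and mt-Atp8 overlaps mt-Atp6 by 43 bases on the same strand.
mt-Nd3: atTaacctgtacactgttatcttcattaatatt
Gm28438: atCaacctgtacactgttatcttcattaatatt

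The level in central memory was also lowest in the genes without annotated copies. mt-Nd1, mt-Nd6 and mt-Cytb, which share no 50-letter stretch with another annotated gene, were all lowest there, and mitochondrial members with under 10% of shared stretches had a median log2 ratio to naive of -1.08, beside -0.98 for all 10. Among nuclear members, 75 of 99 had under 10% of shared stretches. Of these, 25 of the 70 measured ones were called higher in effector memory against naive, beside 22.3% of all genes.

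**Figure D4:**
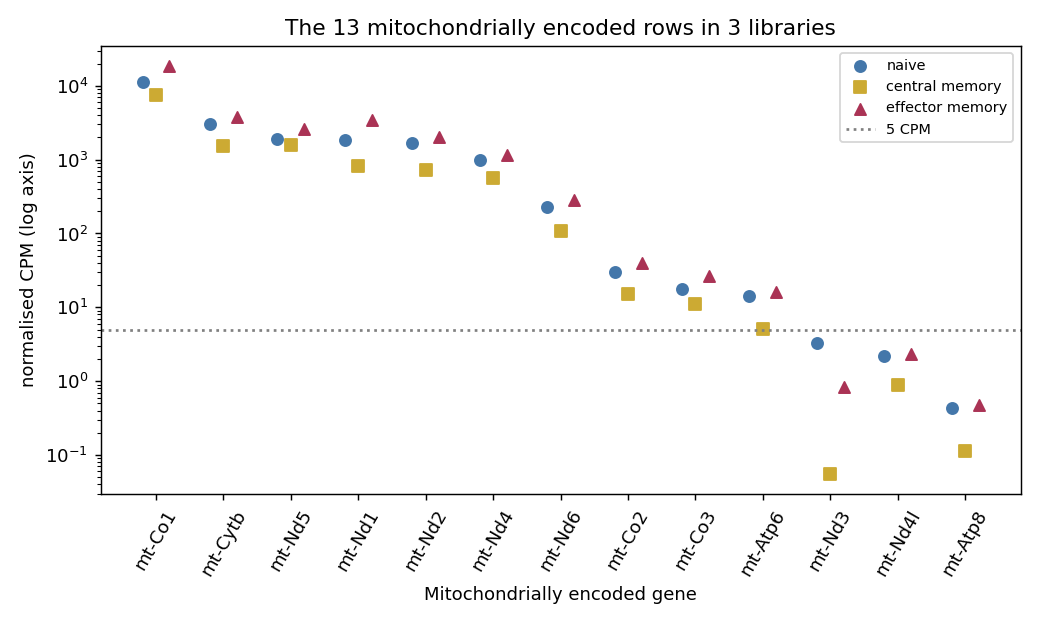
Normalised CPM (log axis) of the 13 mitochondrially encoded genes in the 3 libraries, with circles for naive, squares for central memory, triangles for effector memory and a dotted line at 5 CPM. Squares are lowest for each gene, and the genes span from 18373 CPM for mt-Co1 in effector memory to 0.0558 CPM for mt-Nd3 in central memory.

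Promoters were read for nuclear members because many subunits were called in one direction. Of 99 nuclear members, 85 matched an entry of the RefSeq promoter table (GRCm38.p6, 300 bases around the start of the gene), with 91 entries. Letters known from respiratory gene promoters were searched on both strands: GCGCANGCG (NRF1-like), CCGGAAG (ETS-like), AAGATGGC (YY1-like), TCAAGGTCA (ERR-like) and CACGTG (E-box). Of the subunit promoters, 21 of 70 (30%) held the NRF1-like letters, beside 14.4% of promoters of other genes at 5 CPM and 6.29% of all promoters. The YY1-like letters stood in 14.3%, beside 4.88% and 2.77%, the ETS-like letters in 22.9%, beside 19.4% and 8.91%, the ERR-like letters in 2.86%, beside 0.256% and 0.412%, and the E-box in 7 of 70 (10%), beside 10.4% and 7.17%. Assembly factors held the ETS-like letters in 52.4% and the NRF1-like letters in 19.0%. A match is a description of the sequence and not evidence of binding.

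The letters were set beside the calls of the subunits in effector memory against naive, where 22.3% of all genes were called higher. In effector memory against naive, 8 of 19 genes with the NRF1-like letters were called higher (median log2 ratio 0.93) and 23 of 43 without them (1.10). For the ETS-like letters these were 8 of 15 (1.43) and 23 of 47 (0.98), and for the YY1-like letters 5 of 10 (1.16) and 26 of 52 (1.02). The ERR-like letters stood in 2 genes and the E-box in 6, of which 2 and 4 were called. The called share with and without the NRF1-like, ETS-like and YY1-like letters thus ranged from 8 of 19 to 23 of 43. The promoters of 4 genes are shown with matches in capitals, 3 subunits called higher and Ndufaf4, which was called lower. Atp5f1 holds the YY1-like letters and an E-box, Sdhd the NRF1-like, ETS-like and ERR-like letters, and Uqcr11 the NRF1-like and ETS-like letters. In Ndufaf4 the capitals cover a pair of overlapping NRF1-like matches on opposite strands.
Atp5f1 (chr3:105959214-105959513, minus strand): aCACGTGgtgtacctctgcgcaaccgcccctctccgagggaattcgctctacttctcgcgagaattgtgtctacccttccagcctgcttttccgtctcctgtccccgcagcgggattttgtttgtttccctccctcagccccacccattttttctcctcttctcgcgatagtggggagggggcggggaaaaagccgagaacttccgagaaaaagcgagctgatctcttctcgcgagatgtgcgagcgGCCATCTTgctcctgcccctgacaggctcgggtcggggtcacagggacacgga
Sdhd (chr9:50603800-50604099, minus strand): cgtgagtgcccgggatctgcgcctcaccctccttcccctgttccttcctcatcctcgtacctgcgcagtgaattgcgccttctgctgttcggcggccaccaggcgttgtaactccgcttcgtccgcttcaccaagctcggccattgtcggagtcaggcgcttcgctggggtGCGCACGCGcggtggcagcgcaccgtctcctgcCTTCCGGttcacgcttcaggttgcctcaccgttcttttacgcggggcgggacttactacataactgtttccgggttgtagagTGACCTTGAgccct
Uqcr11 (chr10:80406772-80407071, minus strand): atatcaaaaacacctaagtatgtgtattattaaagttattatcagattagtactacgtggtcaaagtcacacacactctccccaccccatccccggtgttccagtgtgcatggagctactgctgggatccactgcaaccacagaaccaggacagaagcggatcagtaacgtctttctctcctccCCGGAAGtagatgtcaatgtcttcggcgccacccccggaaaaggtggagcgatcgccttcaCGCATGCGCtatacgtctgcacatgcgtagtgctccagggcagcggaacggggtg
Ndufaf4 (chr4:24897833-24898132, plus strand): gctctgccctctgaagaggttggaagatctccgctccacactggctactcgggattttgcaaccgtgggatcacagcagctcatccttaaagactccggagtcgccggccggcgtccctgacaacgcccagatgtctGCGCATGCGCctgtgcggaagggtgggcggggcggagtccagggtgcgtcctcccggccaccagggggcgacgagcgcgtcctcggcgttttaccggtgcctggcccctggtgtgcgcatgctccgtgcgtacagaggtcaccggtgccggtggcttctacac

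Other genes of the respiratory pathway were taken from lists by function. A list of chain and related genes that the symbol rule leaves out also held carriers, outer membrane channels and other mitochondrial proteins. It had 9 of 17 higher and none lower in effector memory against naive (22.3% and 15.6% of all genes). The median log2 ratio of this mixed list was 1.05, beside 0.98 for the subunits. Atpif1, which inhibits ATP hydrolysis by complex V, had the largest ratio in the list at 5.79, 31.5 and 96 CPM, 5.44-fold higher (4.61 to 6.45) in central memory and 16.6-fold higher (14.2 to 19.6) in effector memory than in naive. Vdac1, the main channel of the outer membrane, stood at 77.8, 116 and 295 CPM, and Cycs, cytochrome c, at 52, 49.5 and 116 CPM. Usmg5, a small subunit of ATP synthase, stood at 8.09, 12.6 and 21.6 CPM. Assembly factors outside the symbol rule had 6 higher and 3 lower of 32 (median 0.26), so calls went both ways. Higd1a, which interacts with complex IV, stood at 12.1, 23.5 and 63.1 CPM, Uqcc2, of complex III assembly, at 9.16, 15.2 and 31.2 CPM, and Tmem186, of complex I assembly, at 38.7, 54.2 and 17.4 CPM.

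The next lists cover the making and import of mitochondrial proteins and the handling of mitochondrial DNA and RNA, beside 22.3% of all genes higher and 15.6% lower in effector memory against naive. Mitochondrial ribosomal proteins had 26 of 78 higher and none lower in effector memory against naive (median log2 ratio 0.69). In central memory against naive 3 of 78 were higher (0.20), beside 11.2% of all genes. Mrpl14 stood at 6.4, 13 and 23 CPM and Mrps25 at 10.6, 22.5 and 35.1 CPM. Import factors and chaperones had 3 higher and 1 lower of 29 (0.55), with Pam16, of the import motor, at 8.73, 10.8 and 24.1 CPM and Timm10, a small carrier chaperone, at 10.5, 12.5 and 4.57 CPM. Handling of mitochondrial DNA and RNA had 2 higher and 5 lower of 33 (-0.23), a count of lower genes near that share of all genes. Fastkd1, an RNA-binding protein of mitochondria, stood at 26.2, 13 and 7.32 CPM and Mterf3, a negative regulator of mitochondrial transcription, at 35.1, 24.3 and 13.3 CPM, both called lower in effector memory, while Mgme1, a mitochondrial DNA exonuclease, stood at 8.16, 11.1 and 20.4 CPM. The list for DNA and RNA handling had a median of -0.11 in central memory against naive, where the mitochondrial transcripts had -0.98.

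Regulators of respiratory genes had 0 higher and 2 lower of 9 in effector memory against naive (median log2 ratio -0.10). Beside each list in this paragraph, 22.3% of all genes were higher and 15.6% lower. Ppargc1b, a coactivator of mitochondrial genes, stood at 23.1, 13.3 and 5.25 CPM, 4.41-fold lower (3.71 to 5.25) in effector memory than in naive. Pprc1, a related coactivator, stood at 139, 100.05 and 40.2 CPM, 3.45-fold lower (3.24 to 3.68). Both ran opposite in order to the subunits. The tricarboxylic acid cycle and pyruvate dehydrogenase had 2 of 18 higher (0.33), Fh1, fumarase, at 30.5, 55.3 and 104 CPM and Mdh2, malate dehydrogenase, at 122, 164 and 266 CPM. Coenzyme Q synthesis had 2 higher and 1 lower of 12 (0.39). 0 of 3 nuclear-retained RNAs listed as a sign of RNA quality were in the table.

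**Figure D5:**
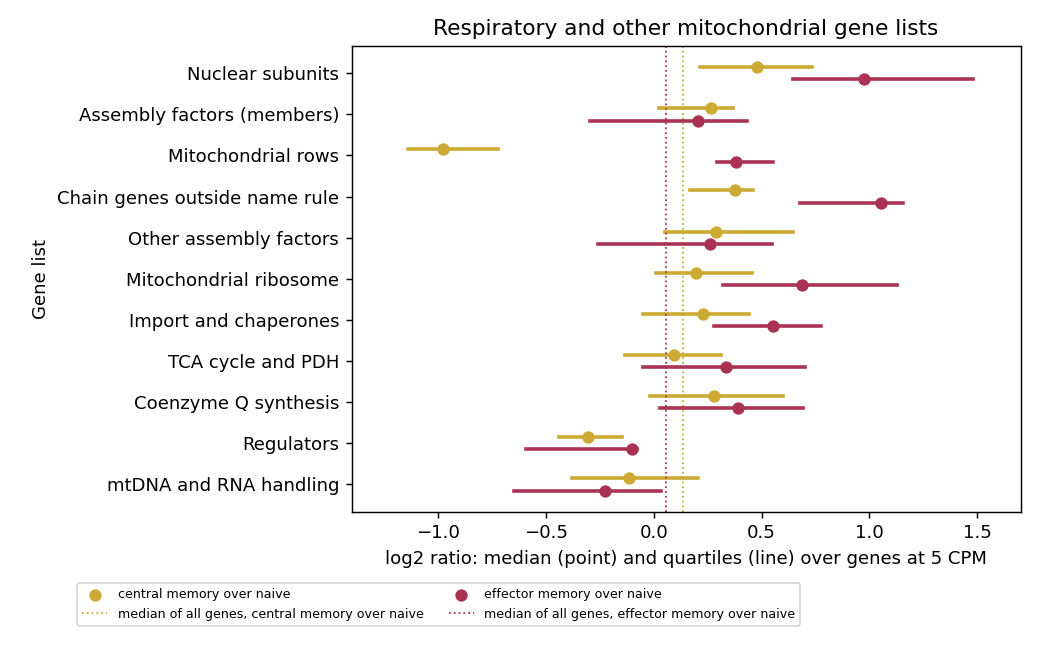
Median (point) and quartiles (line) of log2 ratios against naive over genes at 5 CPM in each list (horizontal axis), in yellow for central memory and red for effector memory, with dotted lines for the medians of all genes. Nuclear subunits and the mixed list of chain and related genes outside the symbol rule have effector memory medians near 1 (0.98 and 1.05), mitochondrial genes stand alone near -1 in central memory (-0.98), and regulators and genes for mitochondrial DNA and RNA handling lie below 0 in both.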

How the data were processed

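RNA-seq read counts of 3 libraries, 1 per group, were used. The deposited values are whole-number counts per gene symbol, made by the authors with CASAVA, HISAT2 2.0.5 and featureCounts 1.5.0-p3 on mm10, per the submitters' processing notes. The library kit is an Illumina TruSeq RNA kit per the labels' protocols. Annotation, strandedness and treatment of reads with several matches are settings that the sources used here do not give. Columns were matched to the groups as abbreviations of the sample titles.

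Counts were divided by library sizes scaled by the trimmed mean of M values (TMM) method of edgeR 4.0.16 under R 4.3.3 (factors 1.04, 0.999 and 0.967 for naive, central memory and effector memory). Ratios between libraries carry exact 95% Clopper-Pearson intervals. Calls needed 5 CPM, a ratio of 2 and an interval excluding 1. A count of 0 allows up to 0.108, 0.0837 and 0.0938 CPM (3 counts), and a ratio against 0 used that floor. Without replicates no test was possible. Some genes are not reported here. The members, complexes, lists and rules were chosen with earlier results of these data known.

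Named genes are all mitochondrial genes, all called members (at most 12 per direction and comparison by the interval bound nearest 1), per complex the nuclear member highest per kilobase and the ones lowest and highest in effector memory against naive, complex II, tissue-restricted isoforms with partners, assembly factors past the rule, and up to 4 called genes per list. Further called members, core subunits and members not called were named after their values were seen. Coordinates, lengths and shared 50-letter stretches came from GENCODE M21, in which all 112 members were found. Levels per kilobase divide CPM by the joined length of all annotated exons of a gene, over all its transcript forms. Ranks per kilobase therefore depend on the annotation and are not a measure of transcript number. Genes with near-identical copies or overlapping neighbours are uncertain, and antisense partners cannot be told apart.

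Alternative scalings were unscaled totals, size factors from DESeq2 1.42.0, upper quartiles and TMM without mitochondrial genes. Further alternatives were other level minimums and ratios, summed counts and, chosen after seeing the data, members with under 10% of shared stretches, genes with at least 100 CPM and the share without mt-Co1. The calling script was tested on simulated data. Python 3.11.15 with NumPy 2.4.6, SciPy 1.17.1 and pandas 2.3.3 did the remaining steps, and matplotlib 3.10.9 the figures.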

Additional observations from a re-analysis of the deposited data

How the results depend on the processing

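Each group has 1 library, so no library could be left out and no spread between replicates is known. No paired analysis was possible because each group has 1 library and no comparison has replicates. Removing mitochondrial rRNA and tRNA rows was not run, since none was among the members. Of the other alternative values for counts, medians and shares, 70 stayed within the limit set for them (1.5 times for counts) and 38 moved. A change of direction was defined for medians only, and 0 of these had one. Intervals of low rows are limited by depth.

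In central memory against naive, the 8 members called higher became 5 with total counts, 4 with DESeq2 size factors and 4 with upper quartile factors, 34 at a ratio of 1.5 and 0 at a ratio of 3. Ndufb8, Cox5a and Atp5j2 lost their call under all 3 scalings and Ndufb9 under DESeq2 and upper quartile factors. The 4 called lower became 7 with DESeq2 or upper quartile factors and 7 with no minimum level, 10 at a ratio of 1.5 and 0 at 3. The nuclear median of 0.42 became 0.30 with upper quartile factors. The mitochondrial median of -0.98 became -1.08 with DESeq2 factors, -1.10 with upper quartile factors, -0.70 as a ratio of summed counts and -1.08 over members with under 10% of shared stretches.

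In effector memory against naive, the 36 higher became 64 at a ratio of 1.5 and 11 at 3, and the 2 lower 4 and 1, or 1 over members with under 10% of shared stretches. The mitochondrial median of 0.38 became 0.28 with total counts, 0.35 with DESeq2 factors, 0.28 with upper quartile factors, 0.42 over genes at 20 CPM, 0.60 as summed counts, and 0.34 both over members with under 10% of shared stretches and over genes with at least 100 CPM. Cox4i1 lost its call under 3 scalings, and Ndufs5 and Atp5g1 with total counts and upper quartile factors.

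Between the memory libraries, the 17 higher became 47 at a ratio of 1.5, 3 at 3 and 10 over members with under 10% of shared stretches, and the 2 lower became 5, 1 and, at a minimum of 20 CPM, 0. Cox5a, Atp5b and Atp5j lost their call with total counts. The nuclear median of 0.40 became 0.49 as summed counts and 0.26 over members with under 10% of shared stretches. Without mt-Co1 the mitochondrial shares of 2.16%, 1.29% and 3.07% became 1.0%, 0.534% and 1.3%.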
